A study of Mus musculus with 8 samples.

Results

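The genes described here encode the glucose transporters, the enzymes that carry glucose to lactate, the lactate transporters, the enzymes that set the pace of glycolysis, the gatekeepers of pyruvate entry into mitochondria, and the core of glycogen storage. They were chosen by symbol, as 38 of the 55292 genes in the deposited count table, and all 38 were found there. All 38 also passed the filter on low counts that left 17342 genes for testing, although Pygl, with 10 and 8 counts in the wild-type libraries, owed its place to the other groups. The cells were E14 mouse embryonic stem cells of the 129/Ola strain, grown on gelatin with serum and LIF, the cytokine that holds such cells undifferentiated. The growth medium was high in glucose and held added pyruvate, and it was the same in every group.

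Poly(A) RNA was sequenced from 3 groups of 2 libraries each, which the series calls biological replicates. KO+Smad7 cells lack the long noncoding RNA lncSmad7 (lncSmad7-/-) and carry the label Smad7 transfected, with 24 h in their description; Smad7 inhibits signalling of the TGF-beta family. KO cells have the same lncSmad7-/- genotype and no treatment. WT cells are untreated wild-type E14. The sources used here do not give how the deletion was made, how many clones carry it, or whether replicates were separate cultures. The p-values therefore measure only how far these libraries spread, which may be technical. The KO cells were not transfected, so Smad7 and the transfection itself cannot be told apart. A further group, lncSmad7-/- cells transfected with lncSmad7, was not analysed here.

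Total counts lay between 13392941 and 20209760 a library, lowest in the KO+Smad7 pair. Levels are in CPM (counts scaled to library size with TMM factors) unless another unit is named. The lncSmad7 row stood at 10.8 and 11.2 CPM (167 and 207 counts) in KO+Smad7, 7.14 and 5.52 CPM (140 and 105 counts) in KO, and 14.0 and 12.4 CPM (237 and 221 counts) in WT. Its log2 fold change was −1.05 (SE 0.12) in KO against WT. The row rose by 0.79 in KO+Smad7 against KO (SE 0.13, adjusted p = 9.3e-09 by edgeR), beside 0.41 (SE 0.05) for Smad7, the gene named in the label. The sources used here do not say which interval was deleted, so counts left in KO do not test the deletion. Smad7 stood at 93.8 and 99.4 CPM in KO+Smad7, 75.5 and 69.6 CPM in KO, and 97.6 and 97.7 CPM in WT. It was thus only 1.33-fold higher in KO+Smad7 than in KO, and every direction drawn from the KO+Smad7 libraries rests on their label. Mitochondrial transcripts took 2.48% and 2.33% of counts in KO+Smad7, 1.40% and 1.37% in KO, and 1.58% and 1.53% in WT.

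Markers of embryonic stem cells were high in every library. The 8 markers listed, Pou5f1, Sox2 and Nanog among them, summed to 4370 to 4385 CPM in KO+Smad7, 6580 to 6676 CPM in KO and 4850 to 4926 CPM in WT. Not all of them followed the sum. Utf1 stood at 65.5 and 68.4 CPM in KO+Smad7, 164 and 162 CPM in KO, and 300 and 310 CPM in WT. Tdgf1 did not fall in KO+Smad7, with 1099 and 1070 CPM there, 1051 CPM in both KO libraries, and 575 and 578 CPM in WT. The 7 primitive endoderm markers, none of them at 0, summed to 12.9 CPM in both KO+Smad7 libraries, 6.73 to 6.98 CPM in KO and 97.5 to 104 CPM in WT. The 5 primed epiblast markers summed to 106 to 107 CPM in KO+Smad7, 84.8 to 89.7 CPM in KO and 53.8 to 55.4 CPM in WT. Otx2 made up most of that sum, with 65.0 and 65.4 CPM in KO+Smad7, 49.4 and 49.2 CPM in KO and 28.0 and 28.5 CPM in WT, while Pou3f1 was lowest in KO+Smad7 and Zic2 was highest in KO. The 5 trophectoderm markers summed to 8.00 to 8.39 CPM in KO+Smad7, where Elf5 was at 0, 7.57 to 8.72 CPM in KO and 30.2 to 32.7 CPM in WT. The 3 neuroectoderm markers summed to 34.3 to 38.1 CPM in KO+Smad7, 51.3 to 52.2 CPM in KO and 58.3 to 61.3 CPM in WT. The lower sum in KO than in WT came from Nes, while Pax6 overlapped between these groups and Sox1 was higher in KO. Sox1 stood at 8.58 and 9.68 CPM in KO+Smad7, 24.3 and 23.98 CPM in KO, and 18.5 and 17.2 CPM in WT. Pax6 was also lowest in KO+Smad7, whereas Nes was higher there than in KO. The 4 mesoderm markers summed to 6.97 to 7.09 CPM in KO+Smad7, 4.15 to 4.33 CPM in KO and 4.36 to 5.54 CPM in WT. Eomes stood at 6.07 and 6.22 CPM in KO+Smad7, 3.47 and 3.26 CPM in KO, and 3.42 and 1.85 CPM in WT. T ran the other way, at 0 and 0.22 CPM in KO+Smad7, 0.15 and 0.16 CPM in KO, and 1.59 and 1.51 CPM in WT. Mixl1 overlapped between all groups, and Mesp1 was lowest in WT. The 7 fibroblast and feeder markers summed to at most 8.76 CPM in any library, and Col3a1 and Lum had no count in KO+Smad7 or KO. These sums moved with the groups, and their part in the results below was not tested.

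Glycolysis splits glucose into pyruvate. Cells take glucose up through facilitative transporters, trap it as glucose 6-phosphate with hexokinase, commit it at phosphofructokinase, and gain ATP at phosphoglycerate kinase and pyruvate kinase. Pyruvate is then reduced to lactate and exported, or carried into mitochondria and oxidised by pyruvate dehydrogenase, which the PDK kinases switch off. Pluripotent cells are known for a high glycolytic rate, and the hypoxia-inducible factors HIF are known activators of many of these genes.

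In KO cells most of the pathway stood above WT. By edgeR's quasi-likelihood test at an adjusted p under 0.05, 28 of 38 genes were higher in KO, 7 were lower (Hk2, Pfkm, Bpgm, Eno3, Slc16a1, Tigar and Ugp2) and 3 did not pass (Pfkfb4, Pdk1 and Mpc1). The background was broad: 67.7% of all genes tested passed between these groups, 34.5% higher and 33.3% lower. Against that even split, the pathway's median log2 fold change was 0.68 and that of all genes tested was 0.02. At 2-fold or more, 13 of the 38 were higher and 1 was lower, beside 14.2% and 8.74% of all genes (22.9% in either direction). The KO and WT libraries did not overlap for any of the 38 genes, which also held for 82.5% of all genes. These are bulk RNA levels, in which fewer cells that express a gene and less of its RNA per cell cannot be told apart.

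In KO+Smad7 against KO the pathway split. Of the 38 genes 18 were higher, 17 were lower and 3 did not pass (Eno3, Ldhb and Pdk4), beside a background of 74.6% of all genes called, 37.8% higher and 36.8% lower. The median log2 fold change was −0.05, against 0.04 for all genes. At 2-fold or more, 5 were higher (Eno2, Pfkfb2, Pfkfb3, Pygl and Gbe1) and 1 was lower (Tigar), beside 18.9% and 6.85% of all genes (25.8% in either direction). The libraries of both groups were separate for 36 of the 38 genes, all but Ldhb and Pdk4, beside 86.3% of all genes. Both glucose transporters and both hexokinases were higher, while 6 of 8 genes from Gapdh to Pkm were lower, 1 was higher and 1 did not pass. With library sizes in place of TMM factors these counts for uptake, hexokinase and the Gapdh to Pkm steps were the same.

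**Figure D1:**
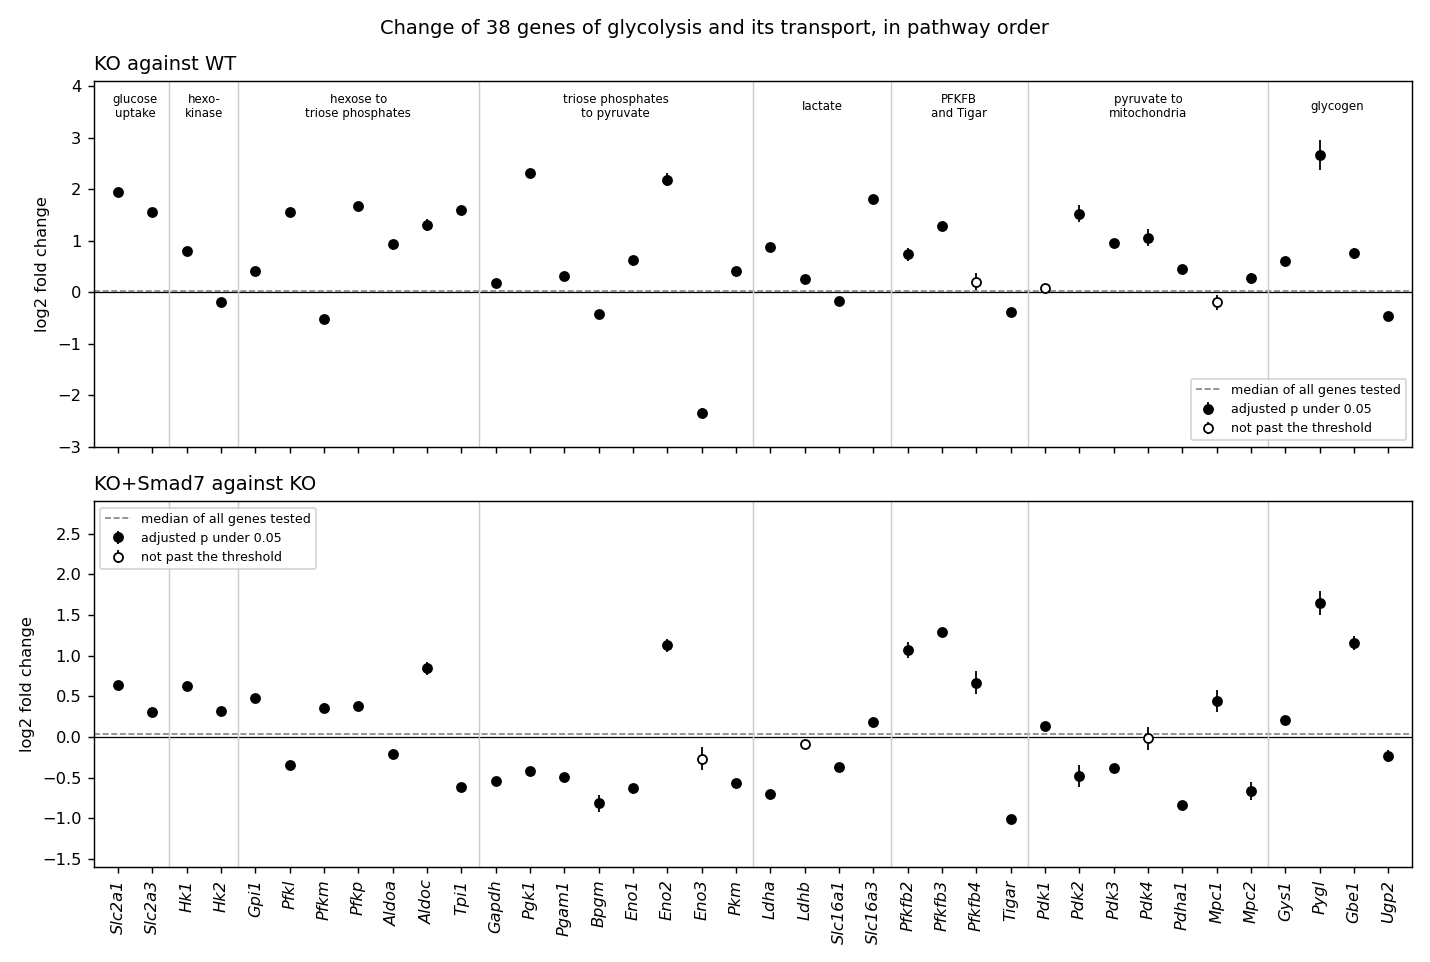
Log2 fold change of each of the 38 genes, ordered along the pathway, in KO against WT (top) and KO+Smad7 against KO (bottom). Points are edgeR estimates with their SE, filled where the adjusted p was under 0.05, and the dashed line is the median of all genes tested. In KO 28 points lie above 0 and pass the test, and in KO+Smad7 the points from Gapdh to Pkm lie below 0 apart from Eno2.

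Promoter sequences are shown for genes that differed in how they moved, because the core HIF binding motif ACGTG can be read in them directly. RefSeq (GRCm38.p6) gave 55 windows of 250 bases upstream of a start for 37 of the 38 genes; Slc2a3 had no entry. Each line below runs 5′ to 3′ on the gene's strand, and capitals mark ACGTG, or CACGT where the motif lies on the other strand, which merge to CACGTG where both overlap.
Pgk1: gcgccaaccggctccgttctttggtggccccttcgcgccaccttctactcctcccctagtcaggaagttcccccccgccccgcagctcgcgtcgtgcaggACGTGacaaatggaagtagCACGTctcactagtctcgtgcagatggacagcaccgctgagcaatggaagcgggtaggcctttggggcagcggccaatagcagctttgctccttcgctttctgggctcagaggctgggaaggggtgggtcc
Slc16a3: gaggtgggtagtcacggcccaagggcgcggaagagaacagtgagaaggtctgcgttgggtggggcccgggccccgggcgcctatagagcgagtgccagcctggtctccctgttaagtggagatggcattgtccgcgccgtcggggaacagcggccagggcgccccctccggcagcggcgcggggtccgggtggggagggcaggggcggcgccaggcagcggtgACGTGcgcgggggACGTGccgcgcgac
Ldha: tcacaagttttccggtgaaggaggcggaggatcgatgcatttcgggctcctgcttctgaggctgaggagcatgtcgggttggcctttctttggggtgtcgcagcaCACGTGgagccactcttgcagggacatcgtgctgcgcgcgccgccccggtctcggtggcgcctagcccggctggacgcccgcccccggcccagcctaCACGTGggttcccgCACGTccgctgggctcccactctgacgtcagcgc
Hk2: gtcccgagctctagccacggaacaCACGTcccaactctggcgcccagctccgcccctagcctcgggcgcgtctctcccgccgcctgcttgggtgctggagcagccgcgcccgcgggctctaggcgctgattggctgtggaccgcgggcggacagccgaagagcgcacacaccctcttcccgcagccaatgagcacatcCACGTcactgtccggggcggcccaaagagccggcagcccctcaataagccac
Tpi1: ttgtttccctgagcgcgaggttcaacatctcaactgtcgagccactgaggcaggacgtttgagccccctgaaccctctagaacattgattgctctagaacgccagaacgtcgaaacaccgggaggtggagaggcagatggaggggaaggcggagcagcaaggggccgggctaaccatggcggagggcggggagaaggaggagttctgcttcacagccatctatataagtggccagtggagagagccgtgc
The Pgk1 window is chrX:106186850-106187099 on the plus strand and holds 2 matches, and that of Slc16a3 is chr11:120948817-120949066 on the plus strand, also with 2. The Ldha window, chr7:46845554-46845803 on the plus strand, holds 5 matches, 2 pairs of which are the palindrome CACGTG read on each strand. Hk2, chr6:82774455-82774704 on the minus strand, has 2 matches and was lower in KO, and Tpi1, chr6:124814159-124814408 on the minus strand, has none and was higher in KO. A match is a run of letters, not a measured binding site.

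Across the 55 windows ACGTG on either strand was found in 20 (36.4%), which belong to 16 genes. It was found in 16.6% of all 32851 RefSeq mouse windows and in 21.1% of the 15064 windows of genes tested here. The related GCGTG was found in 52.7% of the pathway's windows, 28.2% of all windows and 42.9% of windows of tested genes. CACGTG, which contains ACGTG, was found in 10.9% of the pathway's windows, 6.02% of all windows and 8.14% of windows of tested genes. The 16 genes with ACGTG were Aldoa, Hk2, Ldha, Pdk2, Pdk3, Pfkfb2, Pfkfb3, Pfkm, Pgam1, Pgk1, Pkm, Pygl, Slc16a1, Slc16a3, Slc2a1 and Ugp2. That list holds 12 of the 28 genes that were higher in KO and 4 of the 7 that were lower (Hk2, Pfkm, Slc16a1 and Ugp2). Slc2a3, among the 28, had no window and so could not match. These counts take a gene as a match if any of its windows matches, whereas the shares above are by window. No such share was computed for all genes higher or lower in KO, nor this split for GCGTG, found for 24 genes. Whether the motif goes with the direction of change was not tested.

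Both glucose transporters rose in KO and were higher again in KO+Smad7. Slc2a1 (chr4:119108711-119137983, plus strand, GRCm38), which encodes the widely expressed transporter GLUT1, stood at 1466 and 1550 CPM in KO+Smad7, 968 and 973 CPM in KO, and 253 and 252 CPM in WT. Slc2a3, which encodes the high-affinity transporter GLUT3, stood at 3440 and 3504 CPM in KO+Smad7, 2842 and 2792 CPM in KO, and 969 and 948 CPM in WT. The 3 groups stood in the same order for both genes, with no overlap. In KO against WT the log2 fold changes were 1.94 for Slc2a1 (SE 0.04, adjusted p = 9.5e-94) and 1.55 for Slc2a3 (SE 0.03, adjusted p = 2.8e-85). The further rise in KO+Smad7 against KO was 0.64 (SE 0.03) for Slc2a1 and 0.30 (SE 0.03) for Slc2a3. Per kilobase of transcript, the summed level of both transporters averaged 1340 RPKM in KO+Smad7, 1009 RPKM in KO and 320 RPKM in WT.

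The hexokinases, which trap glucose by phosphorylation, went opposite ways in KO. Hk1 stood at 98.6 and 105 CPM in KO+Smad7, 69.2 and 63.5 CPM in KO, and 37.6 and 38.4 CPM in WT. Hk2, the isozyme associated with growth and insulin response, stood at 424 and 449 CPM in KO+Smad7, 358 and 343 CPM in KO, and 403 and 400 CPM in WT. Hk1 thus ran highest in KO+Smad7 and lowest in WT, while Hk2 was lowest in KO; neither had overlapping groups. Hk1 was higher in KO than in WT by 0.80 on the log2 scale (SE 0.06), and Hk2 was lower (−0.20, SE 0.04). The Hk2 fall in KO no longer passed with library size scaling (−0.05). Both were higher in KO+Smad7 than in KO, by 0.62 (SE 0.05) for Hk1 and 0.32 (SE 0.04) for Hk2.

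Of the 7 genes between glucose 6-phosphate and the triose phosphates, 6 were higher in KO and Pfkm was lower (log2 fold change −0.52, SE 0.05). Phosphofructokinase, the committed step, has 3 genes here. Pfkl, named for liver, stood at 454 and 481 CPM in KO+Smad7, 603 and 581 CPM in KO, and 198 and 202 CPM in WT. Pfkp, named for platelets, stood at 677 and 700 CPM in KO+Smad7, 533 and 530 CPM in KO, and 169 and 164 CPM in WT. Both were about 3-fold higher in KO than in WT (1.56, SE 0.04, for Pfkl and 1.67, SE 0.04, for Pfkp), but in KO+Smad7 Pfkl fell (−0.34, SE 0.04) and Pfkp rose further (0.37, SE 0.03).

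The next step is fructose bisphosphate aldolase. Aldoc, the form known from brain, stood at 31.4 and 34.0 CPM in KO+Smad7, 16.3 and 20.3 CPM in KO, and 8.26 and 6.54 CPM in WT, so that it was highest in KO+Smad7 and the groups did not overlap. Its log2 fold changes were 1.31 (SE 0.11) in KO against WT and 0.85 (SE 0.08) in KO+Smad7 against KO. Aldoa, the far more abundant form, rose by 0.94 (SE 0.03) in KO; in KO+Smad7 against KO it stood at −0.20 (SE 0.03), a call that turned to 0.04 with either library size scaling or GC and length offsets. Gpi1, the isomerase before phosphofructokinase, rose in both comparisons (0.42 and 0.48, SE 0.04 each). Tpi1, which interconverts the triose phosphates, stood at 482 and 502 CPM in KO+Smad7, 746 and 758 CPM in KO, and 250 and 249 CPM in WT. KO libraries were the highest and WT libraries the lowest, with log2 fold changes of 1.59 (SE 0.04) in KO against WT and −0.61 (SE 0.04) in KO+Smad7 against KO.

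**Figure D2:**
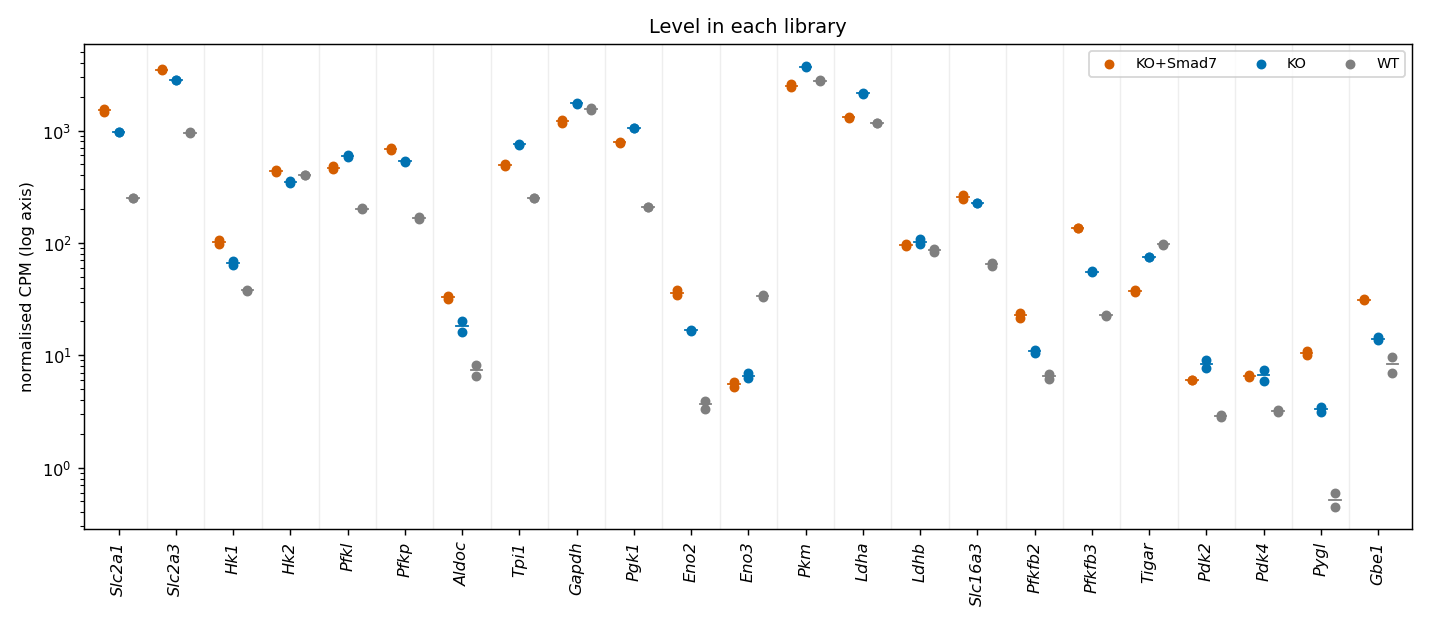
Normalised CPM in each library (log axis) of the 17 genes that passed the test with a change of at least 2-fold in KO against WT or in KO+Smad7 against KO, and of Hk1, Hk2, Gapdh, Pkm, Ldha and Ldhb. Each point is 1 library and each short line a group mean. For Slc2a1 and Slc2a3 the order of levels is KO+Smad7, KO, WT, from high to low, while Tpi1, Pgk1 and Ldha peak in KO.

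Pgk1, which encodes phosphoglycerate kinase, the first ATP-yielding enzyme, had the steepest rise among the abundant enzymes. It stood at 780 and 788 CPM in KO+Smad7, 1044 and 1046 CPM in KO, and 211 CPM in both WT libraries. All KO libraries lay well above WT and the KO+Smad7 libraries lay between, with log2 fold changes of 2.31 (SE 0.04, adjusted p = 3.6e-103) in KO against WT and −0.42 (SE 0.03, adjusted p = 4.6e-23) in KO+Smad7 against KO. Pgk1 lies on the X chromosome (chrX:106187100-106203699, plus strand), as do Pdk3 and Pdha1. In KO against WT the 631 X-linked genes tested had a median log2 fold change of 0.87, with 428 higher and 67 lower, and the 16352 autosomal genes had a median of 0.00. The rise of Pgk1 was above that X-linked median, that of Pdk3 (0.95, SE 0.05) lay near it and that of Pdha1 (0.46, SE 0.04) below it. For these 3 genes a pathway change and the shift of the X chromosome cannot be told apart. The X-linked median in KO+Smad7 against KO was 0.10.

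Gapdh, the enzyme that oxidises the triose phosphate, rose slightly in KO and fell in KO+Smad7 against KO. It stood at 1157 and 1249 CPM in KO+Smad7, 1736 and 1765 CPM in KO, and 1526 and 1578 CPM in WT. The groups did not overlap, and the order was KO, WT, KO+Smad7 from high to low. The log2 fold change in KO against WT was 0.17 (SE 0.03), which with GC and length offsets became 0.04 and did not pass, and in KO+Smad7 against KO it was −0.54 (SE 0.03). Gapdh is a common reference transcript in expression assays. Pgam1, which moves the phosphate group of phosphoglycerate, rose by 0.32 (SE 0.04) in KO and fell by 0.50 (SE 0.04) in KO+Smad7 against KO. Bpgm, which makes the side product 2,3-bisphosphoglycerate, fell in both comparisons (−0.43, SE 0.09, and −0.82, SE 0.11).

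The 3 enolases took 3 different courses. Eno1, the widely expressed form, rose in KO (0.62, SE 0.03) and fell by almost the same amount in KO+Smad7 against KO (−0.63, SE 0.03). Eno2, the form known from neurons, stood at 34.1 and 38.2 CPM in KO+Smad7, 16.4 and 16.9 CPM in KO, and 3.95 and 3.35 CPM in WT. Eno3, the muscle form, stood at 5.81 and 5.19 CPM in KO+Smad7, 6.93 and 6.26 CPM in KO, and 33.3 and 34.2 CPM in WT. Eno2 was therefore highest where Eno3 was low, and WT libraries stood apart from all others for both. In KO against WT the log2 fold changes were 2.19 (SE 0.13) for Eno2 and −2.35 (SE 0.10, adjusted p = 8.3e-52) for Eno3, the only gene of the 38 that was lower by 2-fold or more. Eno2 rose by 1.13 (SE 0.08) in KO+Smad7 against KO, and Eno3 had −0.27 (SE 0.14, adjusted p = 0.080 by edgeR), which did not pass.

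Pyruvate kinase, encoded by Pkm, makes pyruvate and ATP in the last step. It stood at 2415 and 2586 CPM in KO+Smad7, 3748 and 3661 CPM in KO, and 2761 and 2788 CPM in WT. Ldha, which reduces pyruvate to lactate, stood at 1287 and 1332 CPM in KO+Smad7, 2133 and 2145 CPM in KO, and 1155 and 1171 CPM in WT. Both peaked in KO without overlap between groups, but the KO+Smad7 libraries lay below WT for Pkm and slightly above WT for Ldha. In KO against WT the log2 fold changes were 0.42 (SE 0.03) for Pkm and 0.88 (SE 0.03) for Ldha. Both fell in KO+Smad7 against KO, by 0.57 (SE 0.03) for Pkm and 0.71 (SE 0.03) for Ldha. Counts per gene do not separate the spliced forms of Pkm.

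Ldhb, the subunit that favours lactate oxidation, had small fold changes. It stood at 94.7 and 97.5 CPM in KO+Smad7, 97.3 and 107 CPM in KO, and 83.7 and 88.3 CPM in WT. KO+Smad7 and KO overlapped, and both lay above WT. The log2 fold change in KO against WT was 0.25 (SE 0.05); in KO+Smad7 against KO it was −0.09 (SE 0.05, adjusted p = 0.074 by edgeR), and it was called lower with no filter on low counts (−0.13), with a replicate block (−0.09), and without KO replicate 1 (−0.18), WT replicate 1 or WT replicate 2 (−0.11 each). It turned positive, and was called higher, with library sizes as scaling (0.16) and with offsets for GC and length (0.26).

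The monocarboxylate transporters, which carry lactate across the membrane with a proton, also diverged. Slc16a3, which encodes MCT4, the exporter of strongly glycolytic cells, stood at 248 and 269 CPM in KO+Smad7, 227 CPM in both KO libraries, and 62.8 and 66.6 CPM in WT. Every KO and KO+Smad7 library lay above both WT libraries, with a log2 fold change of 1.81 (SE 0.04, adjusted p = 5.2e-78) in KO against WT and 0.19 (SE 0.04) in KO+Smad7 against KO. Slc16a1, which encodes the more widespread MCT1, fell slightly in KO (−0.18, SE 0.04), a fall that did not pass with library size scaling (−0.04) and turned to 0.05 with GC and length offsets. It fell further in KO+Smad7 against KO (−0.37, SE 0.04).

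The PFKFB enzymes make and break fructose 2,6-bisphosphate, the main activator of phosphofructokinase, and Tigar is a phosphatase that lowers it. Pfkfb3, whose enzyme strongly favours synthesis, stood at 136 CPM in both KO+Smad7 libraries, 55.1 and 56.1 CPM in KO, and 22.5 and 22.8 CPM in WT. Pfkfb2 stood at 21.4 and 23.9 CPM in KO+Smad7, 11.2 and 10.5 CPM in KO, and 6.84 and 6.21 CPM in WT. Tigar stood at 38.01 and 36.3 CPM in KO+Smad7, 74.8 and 74.7 CPM in KO, and 96.4 and 98.5 CPM in WT. The order of groups for Tigar was the reverse of that for both PFKFB genes, with no overlap in any of the 3.

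Pfkfb3 rose by almost equal steps, 1.30 (SE 0.06) in KO against WT and 1.29 (SE 0.05) in KO+Smad7 against KO on the log2 scale. Pfkfb2 rose by 0.73 (SE 0.12) and 1.07 (SE 0.10) in the same comparisons. Tigar fell by 0.38 (SE 0.05) and 1.01 (SE 0.06), and its second fall was smaller than 2-fold with library size scaling (−0.76) and when KO+Smad7 replicate 2 was left out. Pfkfb4 did not pass in KO against WT (0.20, SE 0.16) and rose in KO+Smad7 against KO (0.67, SE 0.14). Per kilobase, the summed level of the 3 PFKFB transcripts averaged 36.7 RPKM in KO+Smad7, 15.9 RPKM in KO and 7.64 RPKM in WT.

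Of the 7 genes around pyruvate entry into mitochondria, 5 were higher in KO, and Pdk1 and Mpc1 did not pass. Mpc2, with 0.27 (SE 0.10), was no longer called by DESeq2 (0.21), with RLE scaling (0.21), with offsets for GC and length (0.21 with or without a replicate block), or without KO replicate 2 (0.23) or WT replicate 2 (0.22). The PDK kinases inactivate pyruvate dehydrogenase by phosphorylation. Pdk2 stood at 6.001 and 6.004 CPM in KO+Smad7, 7.65 and 9.10 CPM in KO, and 2.95 and 2.85 CPM in WT. Pdk4, known as the kinase induced by fasting, stood at 6.45 and 6.65 CPM in KO+Smad7, 5.91 and 7.36 CPM in KO, and 3.24 and 3.13 CPM in WT. WT was lowest for both, and for Pdk4 the KO+Smad7 libraries lay within the range of the KO libraries. In KO against WT the log2 fold changes were 1.53 (SE 0.16) for Pdk2 and 1.06 (SE 0.17) for Pdk4.

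Pdk2 fell by 0.48 (SE 0.14) in KO+Smad7 against KO, which DESeq2 did not call, and Pdk4 had −0.01 (SE 0.14), which did not pass. Pdk1, the kinase known for its response to low oxygen, had 0.08 (SE 0.04, adjusted p = 0.052 by edgeR) in KO against WT, which did not pass. It was called higher there with library size scaling (0.22), no filter on low counts (0.09), only the 4 libraries compared (0.10) or a replicate block (0.08), and without either KO+Smad7 library (0.09 each). It rose by 0.13 (SE 0.04) in KO+Smad7 against KO, a call lost with GC and length offsets (0.05). Pdha1, the catalytic subunit of pyruvate dehydrogenase, fell by 0.84 (SE 0.04) in KO+Smad7 against KO, and Pdk3 fell by 0.39 (SE 0.05). The pyruvate carrier subunits went opposite ways there, with 0.44 (SE 0.14) for Mpc1, which DESeq2 did not call, and −0.66 (SE 0.11) for Mpc2.

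The gene with the largest fold rise in both comparisons belongs to glycogen metabolism. Pygl, a glycogen phosphorylase that releases glucose units, stood at 10.9 and 10.01 CPM in KO+Smad7, 3.47 and 3.16 CPM in KO, and 0.590 and 0.447 CPM in WT. Gbe1, the branching enzyme, stood at 31.1 and 31.4 CPM in KO+Smad7, 14.5 and 13.6 CPM in KO, and 7.02 and 9.56 CPM in WT. Both were highest in KO+Smad7 and lowest in WT, and no libraries overlapped. Pygl had log2 fold changes of 2.66 (SE 0.30) in KO against WT and 1.65 (SE 0.15) in KO+Smad7 against KO, and its low WT counts make the first of these the least precise of the 38. Gbe1 had 0.75 (SE 0.11) and 1.15 (SE 0.08) in the same comparisons. Gys1, the glycogen synthase, rose by 0.60 (SE 0.06) and 0.21 (SE 0.05), while Ugp2, which makes its substrate UDP-glucose, fell by 0.47 (SE 0.06) and 0.24 (SE 0.07). The fall of Ugp2 in KO turned into a call of 0.20 with GC and length offsets.

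Sorted by both comparisons, 13 genes were higher in KO than in WT and higher again in KO+Smad7 than in KO: Slc2a1, Slc2a3, Hk1, Gpi1, Pfkp, Aldoc, Eno2, Slc16a3, Pfkfb2, Pfkfb3, Gys1, Pygl and Gbe1. Another 13 were higher in KO and lower in KO+Smad7 than in KO: Pfkl, Aldoa, Tpi1, Gapdh, Pgk1, Pgam1, Eno1, Pkm, Ldha, Pdk2, Pdk3, Pdha1 and Mpc2. Both comparisons share the KO libraries, so these groups describe 1 set of values and are not independent of each other. Transcript length moved with the second comparison. The 18 genes higher in KO+Smad7 than in KO had a median transcript of 3583 bases and the 17 lower had one of 2115 bases. Over all genes tested the medians were 3320 bases for those higher and 2424 bases for those lower. With offsets for GC content and length, 18 of the 38 were called higher and 16 lower. Of these, 17 and 16 were the same calls: Pdk1 (0.05) and Aldoa (0.04) were no longer called, and Ldhb (0.26) was called higher.

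**Figure D3:**
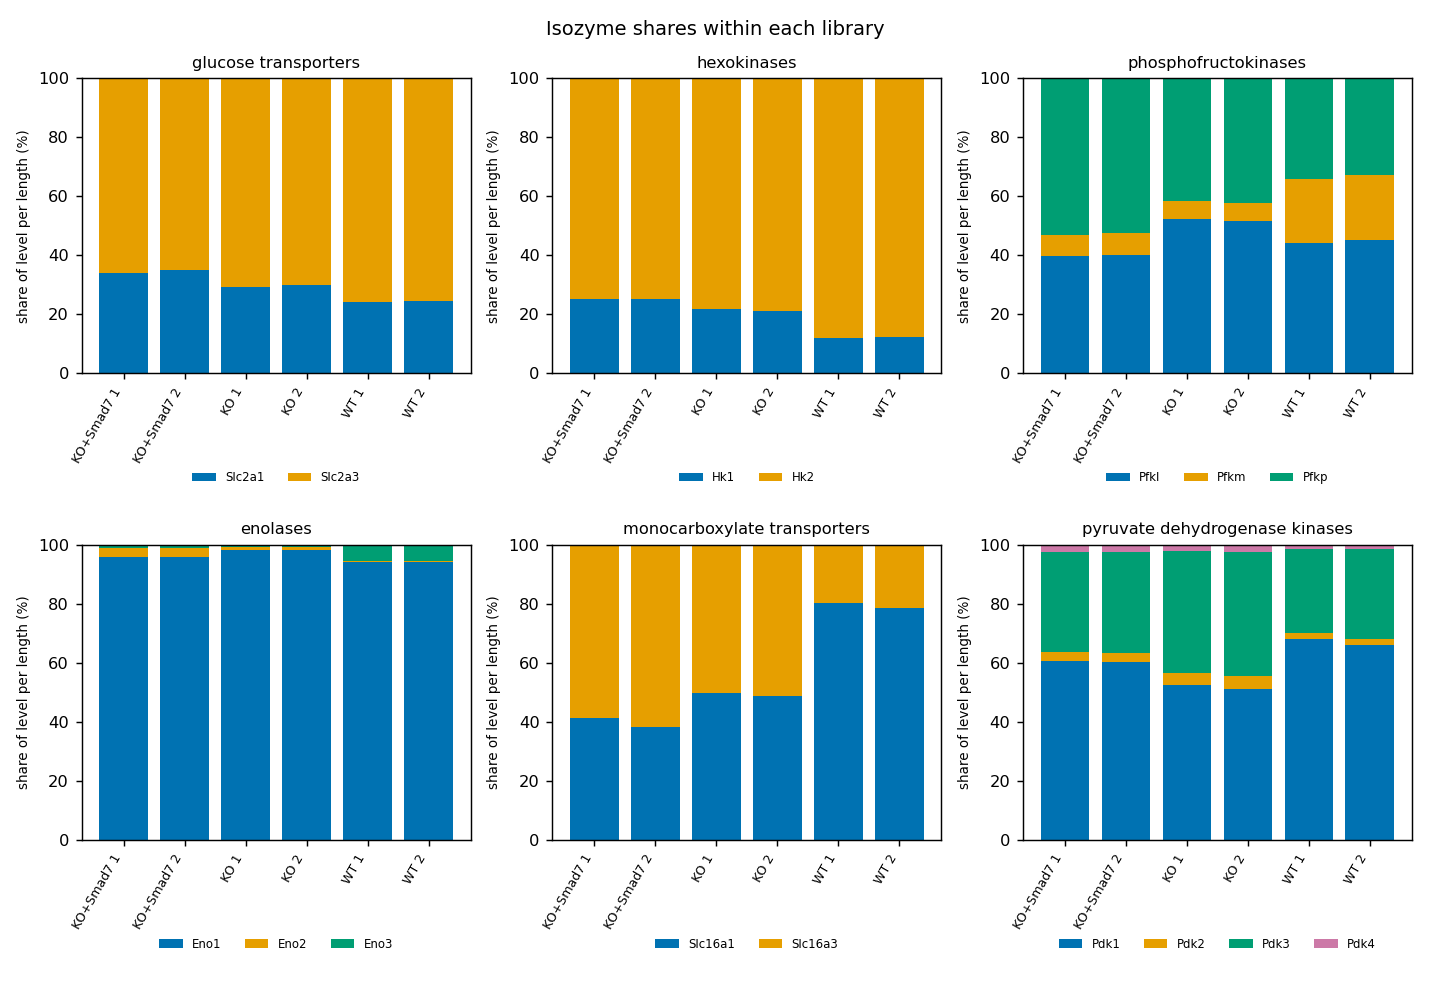
Share of each isozyme in the summed level of its family, per kilobase of transcript, in each library. Bars stack to 100%. Slc16a3 makes up 60.1% of the monocarboxylate transporters in KO+Smad7, 50.7% in KO and 20.6% in WT, and both libraries of a group look alike.

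The balance within isozyme families was computed from levels per kilobase of principal transcript, which lets genes be compared. Slc16a3 rose to a mean of 60.1% of both monocarboxylate transporters in KO+Smad7 and 50.7% in KO, against 20.6% in WT. Libraries of 1 group differed by at most 3.06 percentage points in this share, less than the gap between any 2 groups. Hk1 made up 25.0% of the hexokinases in KO+Smad7, 21.3% in KO and 11.9% in WT, so Hk2 remained the main form. Pfkm took 7.38% of the phosphofructokinases in KO+Smad7, 5.98% in KO and 21.8% in WT, while Pfkp took 52.8% in KO+Smad7, 42.0% in KO and 33.5% in WT.

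Other families kept their leading member. Eno1 was 95.9% of the enolases in KO+Smad7, 98.3% in KO and 94.4% in WT, so the courses of Eno2 and Eno3 concerned a small part of the total. Eno3 was 5.30% of the enolases in WT and under 1% in both other groups. Ldha held 91.0% of the lactate dehydrogenase pair in KO+Smad7, 93.9% in KO and 90.9% in WT. Slc2a3 was the main glucose transporter throughout, at 65.5% in KO+Smad7, 70.5% in KO and 75.8% in WT. Among the PDK kinases Pdk1 held 60.5% in KO+Smad7, 51.9% in KO and 67.1% in WT, and Pdk3 held 34.2% in KO+Smad7, 41.9% in KO and 29.6% in WT.

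The summed level of a family did not always follow its parts. Phosphofructokinases summed to 315 RPKM in KO+Smad7, 305 RPKM in KO and 120 RPKM in WT, so that the opposite courses of Pfkl and Pfkp in KO+Smad7 left the sum almost as in KO. Hexokinases summed to 106 RPKM in KO+Smad7, 80.8 RPKM in KO and 82.7 RPKM in WT. Lactate dehydrogenases summed to 815 RPKM in KO+Smad7, 1290 RPKM in KO and 725 RPKM in WT. Enolases summed to 397 RPKM in KO+Smad7, 599 RPKM in KO and 407 RPKM in WT. The most abundant transcripts per kilobase were those of Aldoa (1035 RPKM) and Pkm (1028 RPKM) in KO+Smad7, Pkm (1523 RPKM) and Gapdh (1233 RPKM) in KO, and Pkm (1141 RPKM) and Gapdh (1093 RPKM) in WT.

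KO+Smad7 cells were also compared with WT cells, in a comparison that shares its libraries with the other two. By edgeR's test 25 of 38 genes were higher, 11 were lower, and Eno1 and Mpc1 did not pass, beside 81.9% of all genes called, 43.1% higher and 38.8% lower. At 2-fold or more 15 were higher and 3 lower (Bpgm, Eno3 and Tigar), beside 27.4% and 15.6% of all genes (43.0% in either direction). The libraries were separate for 37 of the 38 genes, all but Eno1, beside 89.9% of all genes. The median log2 fold change was 0.77, against 0.09 for all genes. Pygl (4.32, SE 0.23), Eno2 (3.31, SE 0.11), Pfkfb3 (2.58, SE 0.06) and Slc2a1 (2.58, SE 0.04) had the largest rises, and Eno3 had the largest fall (−2.62). Gapdh (−0.37, SE 0.03), Pkm (−0.15, SE 0.03) and Pgam1 (−0.18, SE 0.04) were below WT with TMM scaling and above it with library size scaling (0.02, 0.24 and 0.21). With that scaling 30 genes were called higher and 5 lower.

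The choice of scaling moved all genes together. With library sizes in place of TMM factors, the median log2 fold change of all genes went to 0.17 in KO against WT, 0.29 in KO+Smad7 against KO and 0.48 in KO+Smad7 against WT. The share of all calls that were higher then was 61.7% in KO against WT, 65.7% in KO+Smad7 against KO and 68.3% in KO+Smad7 against WT. With TMM factors it was 50.9% in KO against WT, 50.7% in KO+Smad7 against KO and 52.6% in KO+Smad7 against WT. The 38 genes then had 30 higher and 5 lower in KO against WT, and 19 higher and 14 lower in KO+Smad7 against KO. The pathway's median lay 0.65 above that of all genes in KO against WT with either scaling.

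Some of these genes share sequence with copies elsewhere, and the sources used here do not say how reads that fit several genes were counted. At 95% identity over at least 300 bases, Eno1 has 4 such genes in the table. Their counts, mostly of Eno1b, were 19.4% to 20.5% of those of Eno1 in every library, and Eno1b changed like Eno1 (0.61, SE 0.04, in KO against WT and −0.67, SE 0.04, in KO+Smad7 against KO). Gapdh has 91 such genes, whose counts summed to between 4.64% and 7.91% of its own. The copy of Mpc1 held 18.6% to 35.0% of the counts of Mpc1, a gene with low counts whose values are uncertain for that reason.

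The strand setting of the counting is not given either, so reads of overlapping genes cannot be told apart. Pdha1 overlaps or adjoins Map3k15 on the other strand, whose counts were at most 13.9% of its own and which rose in both comparisons (1.94, SE 0.13, and 0.92, SE 0.09). Pfkp has Pitrm1 as such a neighbour, with counts between 20.5% and 112% of its own. Pitrm1 moved less than Pfkp in KO against WT (0.24, SE 0.04) and the other way in KO+Smad7 against KO (−0.54, SE 0.04).

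Pathways that branch from glycolysis or take its product were counted from 9 lists of 120 genes, of which 110 were tested. The shares of all genes tested to set beside these counts are 34.5% higher and 33.3% lower in KO against WT, and 37.8% higher and 36.8% lower in KO+Smad7 against KO. Genes of low-oxygen signalling had 15 of 22 higher and 3 lower in KO against WT, and 15 higher and 6 lower in KO+Smad7 against KO. With library size scaling these counts were 18 and 2, then 16 and 2. Adm, called higher in both comparisons, owed its place among the genes tested to KO+Smad7. It averaged 8.02 CPM there, 0.26 CPM in KO and 0.06 CPM in WT, so its calls rest on values near the floor. Bnip3, a mitochondrial protein of mitophagy, averaged 76.8 ± 2.1 CPM in KO+Smad7, 50.2 ± 1.5 CPM in KO and 4.68 ± 0.05 CPM in WT (SD, n = 2 each), with a log2 fold change of 3.42 (SE 0.09) in KO against WT. Egln3, an oxygen-sensing prolyl hydroxylase, averaged 144 ± 3 CPM in KO+Smad7, 34.1 ± 2.5 CPM in KO and 3.21 ± 0.12 CPM in WT. It rose by 3.41 (SE 0.11) in KO against WT and by 2.08 (SE 0.05) in KO+Smad7 against KO. Ddit4, an inhibitor of mTORC1 signalling, rose by 3.02 (SE 0.04) in KO+Smad7 against KO.

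Hif1a, named after its values were seen, encodes a HIF subunit that is controlled mainly by breakdown of its protein. Its RNA averaged 100 ± 7 CPM in KO+Smad7, 125 ± 10 CPM in KO and 186 ± 8 CPM in WT. It was lower in KO than in WT (−0.57, SE 0.04) and lower again in KO+Smad7 than in KO (−0.32, SE 0.05). The other HIF subunits listed, also named after their values were seen, did not all move this way. In the same comparisons Epas1 had −0.33 (SE 0.05) and −0.24 (SE 0.06), Arnt 0.26 and −0.23 (SE 0.04 each), and Hif3a 0.94 (SE 0.10) and 0.49 (SE 0.08). HIF protein was not measured in these data.

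The citrate cycle, which oxidises pyruvate carbon in mitochondria, had more genes lower than higher in both comparisons with TMM scaling. Of the 18 genes listed for it, which include the cytosolic Mdh1, 3 were higher and 12 lower in KO against WT. All 18 were lower in KO+Smad7 against KO. The first count became 6 higher and 6 lower with library size scaling, and the second 16 lower. In KO against WT Idh2, a mitochondrial isocitrate dehydrogenase, rose by 1.77 (SE 0.05), and Suclg2, a succinyl-CoA ligase subunit, fell by 1.10 (SE 0.06). Idh3g, also among the 3 higher there, is X-linked and rose by 0.99 (SE 0.04), beside a median of 0.87 for X-linked genes. For Idh3g pathway and X chromosome cannot be told apart. In KO+Smad7 against KO Suclg1, the ligase's other subunit, fell by 1.02 (SE 0.05) and Sdhb, of succinate dehydrogenase, fell by 0.96 (SE 0.05). Of the 8 genes of the pyruvate dehydrogenase complex and its phosphatases, 2 were higher and 4 lower in KO against WT, and 1 was higher and 4 lower in KO+Smad7 against KO. Pdha2, among those higher in KO, averaged 0.49 CPM in KO and 0.14 CPM in WT, near the floor. Library size scaling turned the first count round, to 4 higher and 2 lower, and made the second 2 and 4, while GC and length offsets made them 2 and 5, then 1 and 6. The genes called with TMM scaling included the shared subunit Dld (−0.89, SE 0.04) and the phosphatase Pdp1 (0.91, SE 0.12) in KO against WT, and the binding subunit Pdhx (−0.58, SE 0.06) and the phosphatase Pdp2 (−0.67, SE 0.07) in KO+Smad7 against KO.

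**Figure D4:**
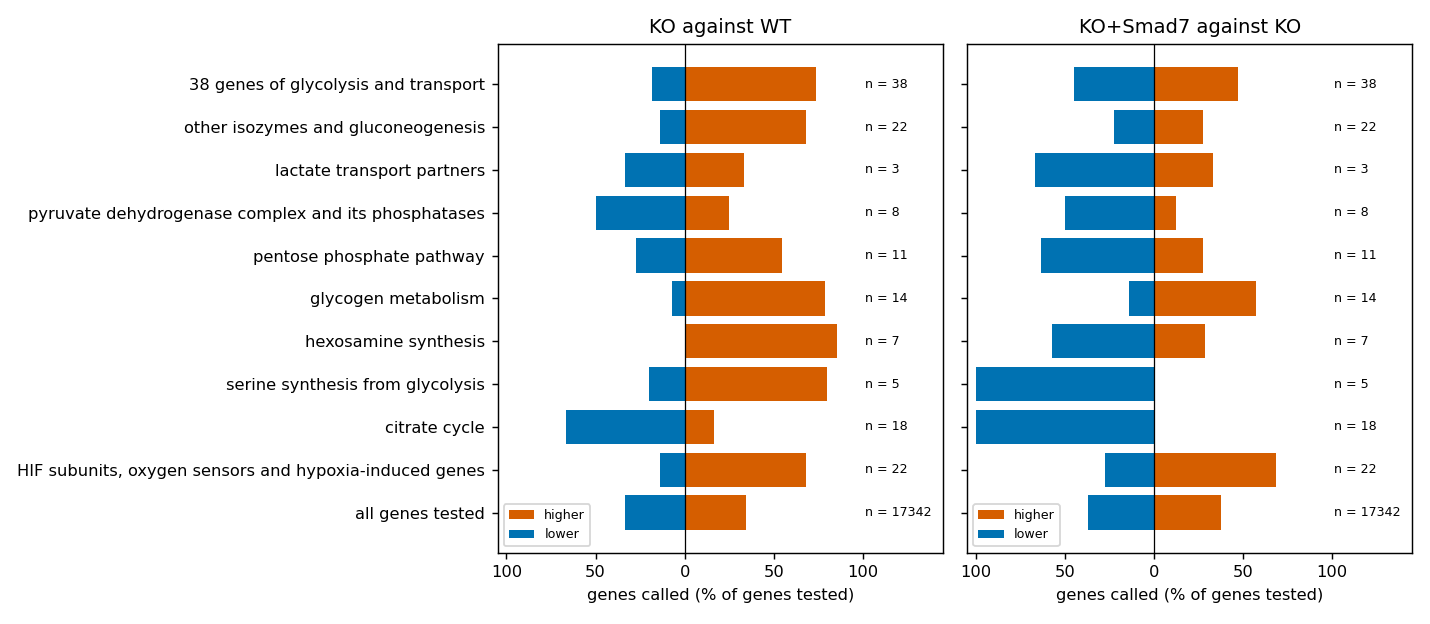
Share of the tested genes of each list that passed the test, higher to the right and lower to the left, in KO against WT and in KO+Smad7 against KO. The number of genes tested stands beside each bar, and all genes tested are the last row. In KO+Smad7 against KO all 18 genes of the citrate cycle list and all 5 of the serine synthesis list are lower.

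The list for serine synthesis, which draws on phosphoglycerate, also holds Shmt1 and Shmt2, which interconvert serine and glycine. It had 4 of 5 genes higher and 1 lower in KO against WT. All 5 were lower in KO+Smad7 against KO, also with library size scaling. In KO against WT Phgdh rose by 0.23 (SE 0.05), Psat1 by 0.31 (SE 0.04) and Psph by 0.45 (SE 0.05). Shmt2, a mitochondrial serine hydroxymethyltransferase, rose by 0.85 (SE 0.04) in KO, and its cytosolic partner Shmt1 fell by 0.46 (SE 0.04). Psat1 and Phgdh, early enzymes of the branch, fell by 1.40 (SE 0.04) and 1.07 (SE 0.05) in KO+Smad7 against KO. The pentose phosphate pathway had 6 of 11 genes higher and 3 lower in KO against WT, and 3 higher and 7 lower in KO+Smad7 against KO. These counts were 7 and 1, then 4 and 7, with library size scaling, and 7 and 3, then 1 and 9, with GC and length offsets. Of the genes higher in KO, G6pdx, Prps1, Prps2 and Tktl1 are X-linked. The X-linked genes tested had a median of 0.87 in KO against WT, so for them pathway and X chromosome cannot be told apart. Of the autosomal genes, H6pd and Pgls were higher in KO and Pgd, Rpe and Taldo1 lower, while Rpia and Tkt did not pass. Prps1, a phosphoribosyl pyrophosphate synthetase on the X chromosome, rose by 0.98 (SE 0.04) in KO and fell by 1.27 (SE 0.04) in KO+Smad7 against KO. G6pdx, the pathway's entry enzyme and also X-linked, rose by 0.83 (SE 0.04) in KO, and Rpia, a ribose phosphate isomerase, fell by 0.99 (SE 0.13) in KO+Smad7 against KO.

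Of 14 further glycogen genes tested, 11 were higher and 1 lower in KO against WT, and 8 were higher and 2 lower in KO+Smad7 against KO. The second count was 12 and 2 with library size scaling. Pgm1, a phosphoglucomutase, averaged 143 ± 3 CPM in KO+Smad7, 90.3 ± 1.7 CPM in KO and 10.6 ± 0.5 CPM in WT, a log2 fold change of 3.08 (SE 0.07) in KO against WT. Phka2, an X-linked regulatory subunit of phosphorylase kinase, rose by 2.03 (SE 0.07) in KO. Phka1, also X-linked and among the genes higher in KO, rose by 1.42 (SE 0.07). The X-linked genes tested had a median of 0.87 there, so for both pathway and X chromosome cannot be told apart. Gaa, the lysosomal glucosidase that breaks down glycogen, rose by 1.42 (SE 0.04) in KO+Smad7 against KO, and Pgm2, also a phosphoglucomutase, fell by 0.75 (SE 0.08).

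Hexosamine synthesis, which uses fructose 6-phosphate, had 6 of 7 genes higher in KO against WT, and 2 higher and 4 lower in KO+Smad7 against KO. The 6 became 2 by DESeq2 and without WT replicate 1, 3 with RLE scaling, and 4 without KO replicate 1 or WT replicate 2. With library size scaling the second comparison had 3 higher and 3 lower. Gfpt2, which makes glucosamine 6-phosphate, rose by 1.03 (SE 0.04) in KO. The X-linked Ogt, which attaches the sugar to proteins, rose by 0.82 (SE 0.04) in KO and 0.77 (SE 0.04) in KO+Smad7 against KO. The X-linked genes tested had a median of 0.87 in KO against WT, so for Ogt pathway and X chromosome cannot be told apart. Pgm3, of the same branch, fell by 1.15 (SE 0.07) in KO+Smad7 against KO. Gnpnat1, also called lower there, averaged 0.06 CPM in KO+Smad7, 0.59 CPM in KO and 0.54 CPM in WT, near the floor. Among other isozymes and gluconeogenic genes 15 of 22 were higher and 3 lower in KO against WT, and 6 were higher and 5 lower in KO+Smad7 against KO. The 11 of 22 called there stand beside 74.6% of all genes tested, and they became 8 higher and 3 lower with library size scaling, 4 and 4 by DESeq2, and 9 and 5 with GC and length offsets and a replicate block. Ldhd, which oxidises D-lactate, rose by 2.85 (SE 0.21) and Pck2, a mitochondrial phosphoenolpyruvate carboxykinase, by 2.07 (SE 0.07) in KO. Pfkfb1, also among those higher in KO (1.33, SE 0.08), is X-linked, so the limit given for Ogt holds for it too. Slc2a4, which encodes the insulin-responsive transporter GLUT4, rose by 0.95 (SE 0.11) and Gpd1l, a glycerol 3-phosphate dehydrogenase family member, fell by 0.82 (SE 0.07) in KO+Smad7 against KO. Hkdc1 was called lower in KO than in WT and higher in KO+Smad7 than in KO. It averaged 1.17 CPM in KO+Smad7, 0.08 CPM in KO and 1.31 CPM in WT, near the floor.

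Of 3 partners and relatives of the lactate transporters tested, 1 was higher and 1 lower in KO against WT, and 1 was higher and 2 lower in KO+Smad7 against KO. The gene higher in KO+Smad7 was Slc16a7, which owed its place among the genes tested to that group. It averaged 1.87 CPM in KO+Smad7, 0.18 CPM in KO and 0.06 CPM in WT, near the floor outside KO+Smad7. Bsg, the chaperone that brings MCT1 and MCT4 to the membrane, rose by 0.38 (SE 0.04) in KO. Its change in KO+Smad7 against KO was −0.08 (SE 0.04), a call that turned to 0.17 with library size scaling. Emb, a related partner, averaged 32.3 ± 0.8 CPM in KO+Smad7, 53.0 ± 0.8 CPM in KO and 94.4 ± 1.1 CPM in WT. It fell by 0.83 (SE 0.05) in KO against WT and by 0.71 (SE 0.06) in KO+Smad7 against KO, the reverse of the order seen for Slc16a3.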

How the data were processed

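Poly(A) RNA of E14 mouse embryonic stem cells was analysed as read counts per gene in 6 libraries, 2 in each of 3 groups. The authors deposited raw counts per gene symbol for 55292 genes. Per the labels' protocols RNA was extracted with TRIzol and libraries were made with the TruSeq kit and sequenced on a NextSeq instrument. The submitters' processing notes name STAR, featureCounts 1.6.3 and the builds mm10 and GRCm38. The sources used here do not give the annotation release, the strand setting or the treatment of shared reads. Columns were matched to samples by name, and 2 columns that match no sample's labels were not used.

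Genes were filtered with filterByExpr, which left 17342, scaled with TMM factors and tested with edgeR's robust quasi-likelihood test (edgeR 4.0.16, limma 3.58.1, R 4.3.3), in 1 fit with a coefficient per group, which leaves 3 residual degrees of freedom. The p-values were adjusted by Benjamini-Hochberg over the 17342 genes, at a threshold of 0.05, and the common biological coefficient of variation was 2.47%. The SE of a log2 fold change is its size over the square root of F. Replicates differed by more than sampling noise (chi-square per degree of freedom 1.89 in KO+Smad7, 1.72 in KO and 1.57 in WT). Replicate numbers are numbers only: deviations of same-numbered libraries correlated at 0.026 at most. The test was also run on simulated counts in which few genes changed, as many up as down, with a preset replicate spread. That run cannot check the scaling of these data, where most genes were called.

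Levels per kilobase (RPKM) divide CPM by the length of 1 principal transcript per gene in GENCODE release M21 (GRCm38), which also gave positions. Copies were found by blastn of transcripts. Promoters came from RefSeq, 250 bases upstream of each start. Values in every library are given for genes past the threshold with at least 2-fold change in KO against WT or KO+Smad7 against KO, and for Hk1, Hk2, Gapdh, Pkm, Ldha and Ldhb. From each of 9 pathway lists the 2 genes with the largest change past the threshold, with a mean of at least 5 CPM, are named per comparison. The 38 genes, the lists and the tests were chosen with earlier results of these data known. Alternatives were DESeq2 1.42.0, RLE and library size scaling, no filter, only the 4 libraries compared, a replicate block, GC and length offsets (mgcv 1.9.3), both together, and each library left out.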

Additional observations from a re-analysis of the deposited data

How the results depend on the processing

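Of the log2 fold changes of the 38 genes under all alternatives, 1524 of 1596 kept their direction and their side of the threshold, and 28 reversed. The median over the 38 genes in KO against WT, 0.68 with TMM factors, was 0.62 by DESeq2 and by RLE scaling, 0.82 with library size scaling, 0.50 with GC and length offsets, 0.50 with these and a replicate block, and 0.61 to 0.71 with 1 library left out. In KO+Smad7 against KO the median, −0.05, reversed to 0.043 with GC and length offsets, with or without the replicate block, and to 0.20 with library size scaling, and ran between −0.18 and 0.038 with 1 library left out, positive without KO replicate 2. No gene was then lower by 2-fold or more with library size scaling (0) or without KO+Smad7 replicate 2; Tigar was the 1 gene concerned, and the range with 1 library left out was 0 to 1. In KO+Smad7 against WT the median, 0.77, was 0.73 by DESeq2 and by RLE scaling, 0.72 with GC and length offsets with or without the block, 1.17 with library size scaling, 0.75 without a filter, and 0.72 to 0.80 with 1 library left out, and the 11 genes lower became 5 with library size scaling.

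GC and length offsets, without and with the block, reversed in KO against WT Slc16a1 (0.045 in both), Pfkfb4 (−0.055 and −0.053), Mpc1 (0.035 and 0.036) and Ugp2 (0.20 in both), in KO+Smad7 against KO Aldoa (0.040 and 0.041), Eno3 (0.017 and 0.019), Ldhb (0.26 and 0.25) and Bsg (0.16 in both), and in KO+Smad7 against WT Hk2 (−0.13 in both). Library size scaling reversed in KO+Smad7 against KO Aldoa (0.043), Ldhb (0.16), Pdk4 (0.23), Ugp2 (0.010) and Bsg (0.17), and in KO+Smad7 against WT Pfkm (0.23), Gapdh (0.025), Pgam1 (0.21), Eno1 (0.38), Pkm (0.24) and Pdha1 (0.0083). With 1 library left out, Pdk4 in KO+Smad7 against KO ran between −0.19 and 0.13, positive without KO replicate 2, and Eno1 in KO+Smad7 against WT ran between −0.033 and 0.020, positive without KO+Smad7 replicate 1. The cause of these changes was not tested.

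The replicate numbers did not pair the samples. With the replicate block alone, 29 genes were higher and 7 lower in KO against WT, and 18 higher and 18 lower in KO+Smad7 against KO; the added calls were Pdk1 (0.08) and Ldhb (−0.09). Low counts widened the errors: in KO against WT the SE was 0.30 for Pygl and 0.17 for Pdk4.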
